A study of Mus musculus with 10 samples.

Results

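Wnt ligands of the ureteric epithelium were followed in mouse organoids of the ureteric bud (UB) and of the collecting duct (CD) and in CD cells of adult mice (adult mCD). The 8 genes Wnt11, Wnt9b, Wnt7b, Wnt4, Wnt6, Wnt5a, Wnt5b and Wnt10a were taken by name from a table of 39273 genes, and all 8 were found and entered the tests. They are 8 of the 19 Wnt genes of the mouse, and the other 11 are given beside them where they bear on a result.

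Wnt proteins are secreted signals that carry a lipid. The enzyme Porcn attaches that lipid to a serine, the carrier Wls brings the ligand to the cell surface, and Frizzled receptors with Lrp5 or Lrp6 receive it. In canonical signalling this stabilises beta-catenin, which acts with TCF/LEF factors on target genes such as Axin2. Other Wnts act through Ror and Ryk receptors and the planar cell polarity pathway. In the embryonic kidney Wnt11 is made at the branching tips of the UB and Wnt9b and Wnt7b in its stalk. Wnt9b induces the nephron progenitors, Wnt7b is needed for the renal medulla, and Wnt4 drives the conversion of induced mesenchyme to epithelium.

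RNA was sequenced from 10 libraries in 5 groups of 2. UB organoids were grown from the UB of E11.5 kidneys and sampled at day 5, day 10 and day 20 in UB culture medium (UBCM), which contains GDNF, FGF9, R-Spondin1 and CHIR99021, an inhibitor of GSK3 that itself stabilises beta-catenin. Per the study's methods, CD organoids were UB organoids of day 10 that spent a further week in CD differentiation medium, which lacks CHIR99021 and GDNF. That medium contains FGF9, the Notch inhibitor DAPT, a MEK inhibitor, aldosterone and vasopressin. Adult mCD cells were sorted from kidneys of mice of 2 months. All organoid groups share the genotype Wnt11-RFP +/- on a C57BL/6 x Swiss Webster background, so every organoid library carries a reporter driven by the Wnt11 gene, and its part in the Wnt11 counts was not tested. The adult cells were sorted on Hoxb7-Venus, a fluorescent transgene under the Hoxb7 promoter, which is active along the whole ureteric lineage; the labels of these libraries repeat the embryonic age and the reporter of the organoids, whereas the design text of the series names sorted adult cells. Nothing in the sources says that the 2 libraries of a group came from separate cultures or animals, so the p-values measure only the spread between these libraries.

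Total counts ranged from 11913613 to 24536676 per library and were highest in the UB organoids of day 5 and day 10. The summed level of 4 Y-linked genes was 0.0408 to 0.875 CPM, counts scaled to the library size, in UB organoids of day 5 and day 10 and 229.8 to 294.9 CPM in the other 6 libraries, so day 20 and CD organoids differ from day 5 and day 10 UB organoids in the sex of their cells as well as in culture, and these cannot be told apart. The summed level of 8 proximal tubule markers was 8929 to 10993 CPM in adult mCD and at most 41.3 CPM in any organoid library, with none of the 8 at 0 in adult mCD. The 5 markers of the loop of Henle and distal convoluted tubule summed to 3739 to 3979 CPM in adult mCD and to at most 7.06 CPM in organoids, and the 5 endothelial markers to 584.6 to 587.9 CPM and at most 2.91 CPM, again with none at 0 in adult mCD. The part of these cells in the values of adult mCD was not tested. The summed level of 8 stromal markers was 125.9 to 239.9 CPM in CD organoids and 117.7 to 126.4 CPM in adult mCD, against 9.27 to 29.6 CPM in UB organoids. In bulk RNA, fewer cells of a type and less RNA per cell cannot be told apart.

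The feature that makes these 8 genes a family can be read in their coding sequence. The 30 bases that encode the residues around the lipid-bearing serine are given here 5′ to 3′ on the coding strand, with the serine codon in capitals, since the lipid at this serine is the modification every member needs for secretion.
Wnt11: tgtaaatgccatggggtgTCTggctcctgc
Wnt9b: tgcaagtgccatggtgtgTCAggctcctgt
Wnt7b: tgtaagtgtcacggtgtgTCAggctcctgt
Wnt4: tgcaagtgtcacggggtgTCGggctcctgc
Wnt6: tgtaagtgccatgggcttTCGggttcctgc
Wnt5a: tgtaagtgtcatggagtgTCTggctcctgt
Wnt5b: tgcaaatgtcacggagtcTCCgggtcctgc
Wnt10a: tgcaaatgccacggcaccTCAggcagctgc
They were read from GENCODE M21 transcripts and each lies within a single coding exon on GRCm38. For Wnt11 the stretch is chr7:98850254-98850283 on the plus strand in exon 6, for Wnt9b chr11:103731167-103731196 on the minus strand in exon 4, for Wnt7b chr15:85537812-85537841 on the minus strand in exon 4, and for Wnt4 chr4:137296339-137296368 on the plus strand in exon 5. For Wnt6 it is chr1:74784166-74784195 on the plus strand in exon 4, for Wnt5a chr14:28522509-28522538 on the plus strand in exon 5, for Wnt5b chr6:119433800-119433829 on the minus strand in exon 5, and for Wnt10a chr1:74803150-74803179 on the plus strand in exon 4. Of the 30 bases, Wnt11 shares 26 with Wnt5a and 21 with Wnt10a. Every serine codon shown begins with TC.

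Over the whole coding sequence, Wnt5a and Wnt5b were the most alike pair of the 8, with 77.6% identical bases over 1114 aligned bases and a longest exact shared run of 29 bases. The other 27 pairs had 60.6% to 66.4% identity and longest exact shared coding runs of 12 to 22 bases. Whether any read was shared between members in the authors' counting was not tested.

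The genes lie apart in the genome with a single exception. Wnt6 (chr1:74771892-74785322) and Wnt10a (chr1:74791516-74804179) are neighbours on the plus strand, 6193 bases apart with 0 coding genes between them on GRCm38. Wnt11 lies at chr7:98835112-98855195 on the plus strand and Wnt9b at chr11:103727364-103749821 on the minus strand. Wnt7b lies at chr15:85535437-85582473 on the minus strand and Wnt4 at chr4:137277489-137299726 on the plus strand. Wnt5a lies at chr14:28504750-28527448 on the plus strand and Wnt5b at chr6:119432531-119544347 on the minus strand.

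Wnt11 and Wnt6, whose levels moved most alike of any 2 members, are shown with the 250 bases before their first RefSeq start on GRCm38.p6. Capitals mark matches on either strand to the TCF/LEF core, searched as CTTTGA and CTTTGT, and to the TATA box, searched as TATAAA.
Wnt11: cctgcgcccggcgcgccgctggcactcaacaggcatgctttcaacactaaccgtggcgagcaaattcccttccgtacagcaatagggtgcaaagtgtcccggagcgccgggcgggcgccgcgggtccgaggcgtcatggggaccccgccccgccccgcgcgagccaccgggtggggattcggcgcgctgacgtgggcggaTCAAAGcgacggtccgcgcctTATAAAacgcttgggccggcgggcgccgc
Wnt6: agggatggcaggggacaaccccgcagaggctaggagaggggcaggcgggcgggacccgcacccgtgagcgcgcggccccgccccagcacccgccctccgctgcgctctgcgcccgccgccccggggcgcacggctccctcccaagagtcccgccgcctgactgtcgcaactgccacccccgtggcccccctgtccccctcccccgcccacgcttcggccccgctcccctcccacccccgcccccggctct
The Wnt11 window is chr7:98834862-98835111 and the Wnt6 window chr1:74771642-74771891, both on the plus strand. The Wnt11 window held 1 TCF/LEF match, CTTTGA on the minus strand starting 50 bases before the start, and 1 TATA box starting 29 bases before it. The Wnt6 window held neither. Among 32851 promoter windows of this length, 27.62% held a TCF/LEF match and 12.37% a TATA box. G and C made up 70.8% of the Wnt11 window and 79.6% of the Wnt6 window, against a median of 52.4% over all windows. RefSeq windows were found for 5 of the 8 members, Wnt11, Wnt9b, Wnt4, Wnt6 and Wnt5b. The first windows of Wnt9b, Wnt4 and Wnt5b held neither motif. The third window of Wnt5b held a TCF/LEF match, CTTTGA starting 71 bases before the start, and the second window of Wnt11 held neither motif.

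Wnt11, the tip ligand, had the widest span of CPM of any member. Its level was 376 and 496 CPM in the 2 UB organoid libraries of day 5, 192 and 109 CPM at day 10, and 19.2 and 22.7 CPM at day 20. It was 0.570 and 0.241 CPM in CD organoids, from 8 and 3 counts, and 2.64 and 1.65 CPM in adult mCD. The ranges of the 5 groups did not overlap, in the order day 5, day 10, day 20, adult mCD and CD organoids. In the quasi-likelihood test of edgeR, with p-values adjusted over 24410 genes by the method of Benjamini and Hochberg, a gene was called when its adjusted p was at most 0.01 and its change more than 4-fold. By this rule Wnt11 fell 20.8-fold from day 5 to day 20 (log2 fold change -4.38, SE 0.24, adjusted p = 1.36e-08) and 7.18-fold from day 10 to day 20 (-2.84, SE 0.23, adjusted p = 1.58e-06). Between day 5 and day 10 the fold was 2.89 (-1.53, SE 0.21, adjusted p = 7.71e-05), under the 4-fold limit of a call. It passed that limit only when the first day 10 library was left out, at -2.01.

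Other tip markers in UB organoids are given beside this fall. Of 6 tip markers other than Wnt11, 1 (Sox8) was called lower at day 20 than at day 5 and 0 were called higher, against 3.93% and 4.68% of all genes tested. Lhx1 is not among the 6, but the study names it with Wnt11 as a gene enriched in UB tips. Lhx1 was at 77.0 to 92.9 CPM at day 5 and at 0.486 to 1.85 CPM at day 20, and was called lower. Ret, the GDNF receptor that marks UB tips, was at 610 to 701.8 CPM at day 5 and at 2075 to 2100.3 CPM at day 20, a log2 difference of 1.67 (SE 0.31, edgeR adjusted p = 0.000492) that stayed under 4-fold.

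In CD organoids Wnt11 was close to the limit of detection, where 3 counts correspond to 0.214 and 0.241 CPM in these libraries. It was lower than in day 10 UB organoids by 8.33 on the log2 scale (SE 0.41, edgeR adjusted p = 1.36e-09) and lower than in day 20 UB organoids by 5.48 (SE 0.49, adjusted p = 6.44e-07). Adult mCD lay below day 20 UB organoids by 3.25 (SE 0.37, adjusted p = 3.33e-06). The difference between CD organoids and adult mCD, -2.24 on the log2 scale (SE 0.77, adjusted p = 0.0271), was not called. It was called with no count filter, with only the 4 libraries compared and by DESeq2, at log2 values of -2.19 to -2.43.

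**Figure D1:**
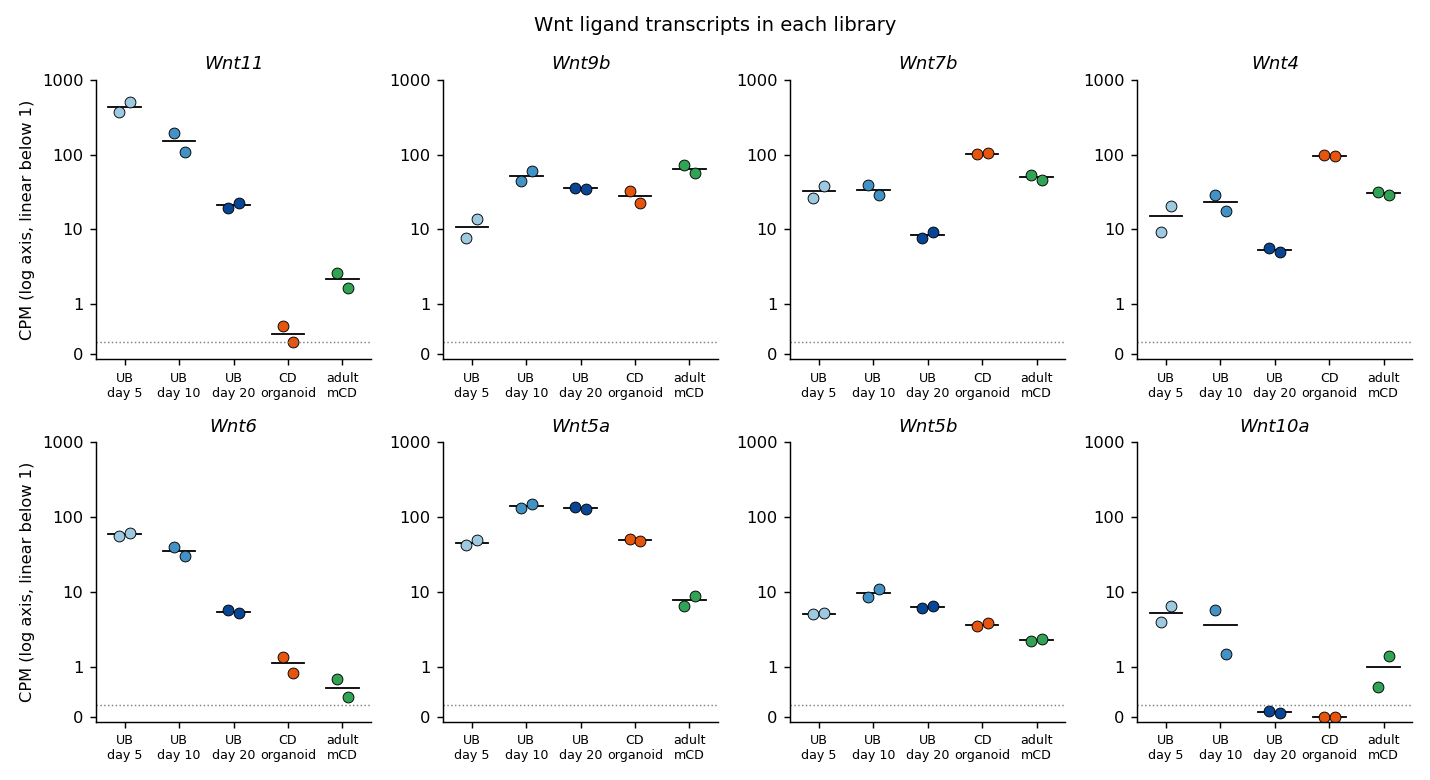
Level of each Wnt ligand in each library in CPM, on an axis that is logarithmic above 1 and linear below, with points for the 2 libraries of a group, a line at their mean and a dotted line at the highest 3-count floor of any library, 0.241 CPM. Wnt11 spans 496 to 0.241 CPM, Wnt7b and Wnt4 peak in CD organoids, and Wnt10a is at 0 in both CD organoid libraries.

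Wnt6, a ligand of the ureteric bud epithelium, had the same order as Wnt11 over the UB organoids but was lowest in adult mCD, whereas Wnt11 was lowest in CD organoids. Its level was 56.4 and 62.3 CPM at day 5, 40.5 and 30.6 CPM at day 10, and 5.70 and 5.22 CPM at day 20. CD organoids had 1.35 and 0.882 CPM and adult mCD 0.754 and 0.393 CPM, from 5 to 19 counts. No range overlapped that of another group. Wnt6 fell 6.44-fold between day 10 and day 20 (log2 -2.69, SE 0.17, edgeR adjusted p = 1.51e-07) and 10.8-fold between day 5 and day 20 (-3.43, SE 0.17, adjusted p = 5.13e-09). It was 30.03-fold lower in CD organoids than in day 10 UB organoids (-4.91, SE 0.22, adjusted p = 6.65e-10). Against day 20 it was lower in CD organoids (-2.22, SE 0.27, adjusted p = 1.22e-05) and in adult mCD (-3.13, SE 0.31, adjusted p = 8.72e-07). The first of these was under 4-fold, at -1.98, without the second CD organoid library. Across the 10 libraries the log2(CPM + 1) values of Wnt6 and Wnt11 had a Pearson r of 0.978, the highest of the 28 member pairs; the libraries share groups of 2, and the value is a description of 5 group levels more than of 10 separate points.

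Wnt10a, the genomic neighbour of Wnt6, had the lowest level of the 8 per gene length at day 20 and in CD organoids. It was at 3.97 and 6.57 CPM at day 5, at 5.75 and 1.495 CPM at day 10, and at 0.121 and 0.0661 CPM at day 20, from 2 counts and 1 count. Both CD organoid libraries had 0 counts, and adult mCD had 0.603 and 1.41 CPM. The ranges of day 5 and day 10 overlapped, and day 20 and CD organoids were at or under 3 counts in every library. The summed counts gave a level 55.8-fold higher at day 5 than at day 20, with a counting interval of 18.9 to 272.6, and 37.2-fold higher at day 10 than at day 20, with an interval of 12.5 to 182.1. Against a floor of 3 counts over the group, Wnt10a was at least 15.9-fold lower in CD organoids than at day 10 and at least 4.44-fold lower than in adult mCD. By edgeR's quasi-likelihood test it was called lower at day 20 than at day 10 (adjusted p = 0.00109) and than at day 5 (adjusted p = 0.000164), and lower in CD organoids than at day 10 (adjusted p = 0.000269). The first of these calls was lost without either day 20 library. Between adult mCD and CD organoids the adjusted p was 0.011, which is no call.

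Wnt9b, the stalk ligand that induces nephron progenitors, rose in early culture. It was at 7.64 and 13.7 CPM at day 5, at 44.0 and 60.1 CPM at day 10, and at 35.4 and 35.1 CPM at day 20. CD organoids had 33.0 and 22.8 CPM and adult mCD 72.2 and 56.4 CPM. Day 5 lay below every other group, and the ranges of day 10 and adult mCD overlapped. The rise between day 5 and day 10 was 4.86-fold (log2 2.28, SE 0.24, edgeR adjusted p = 9.38e-06), and without the first day 5 library it was 1.94 on the log2 scale and no longer over 4-fold. Day 20 was 3.29-fold above day 5 (1.72, SE 0.24, adjusted p = 5.23e-05), short of a call. No other comparison of Wnt9b was called: CD organoids stood at -0.89 (SE 0.23) against day 10, at -0.33 (SE 0.23) against day 20 and at -1.199 (SE 0.23) against adult mCD. The spread of Wnt9b over the 4 groups other than day 5 was thus 22.8 to 72.2 CPM, while Wnt11 in the same libraries spanned 0.241 to 192 CPM.

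Wnt7b, the ligand of the maturing collecting duct, was highest in CD organoids, where Wnt11 was lowest. Its level was 26.6 and 38.5 CPM at day 5, 39.0 and 28.8 CPM at day 10, 7.65 and 9.26 CPM at day 20, 102 and 104 CPM in CD organoids, and 53.7 and 45.8 CPM in adult mCD. Day 5 and day 10 overlapped, day 20 was the lowest group and CD organoids the highest. CD organoids were 12.2-fold above day 20 UB organoids (log2 3.60, SE 0.19, edgeR adjusted p = 4.24e-09), and adult mCD were 5.88-fold above them (2.55, SE 0.20, adjusted p = 6.20e-08). Against day 10 the CD organoids were 3.04-fold higher (1.61, SE 0.16, adjusted p = 1.79e-06), which is under the limit of a call. Between day 10 and day 20 the level differed by -1.999 on the log2 scale (SE 0.19, adjusted p = 6.38e-06), a fold of 3.996 that lies just under the limit. It was called with library totals in place of TMM factors, at -2.03. CD organoids exceeded adult mCD by 1.05 (SE 0.16, adjusted p = 0.000105), which was not called.

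Wnt4, which acts in induced mesenchyme and later in the medullary collecting duct, had the same order of groups as Wnt7b. It was at 9.35 and 20.8 CPM at day 5, at 29.2 and 17.4 CPM at day 10, at 5.70 and 5.02 CPM at day 20, at 98.8 and 94.5 CPM in CD organoids and at 32.0 and 28.8 CPM in adult mCD. CD organoids stood above and day 20 below all other groups, and the day 5, day 10 and adult mCD libraries met in part: day 10 overlapped each of the other 2. CD organoids were 17.8-fold above day 20 (log2 4.16, SE 0.33, edgeR adjusted p = 1.64e-07) and 4.15-fold above day 10 (2.05, SE 0.27, adjusted p = 2.12e-05). The second value lost its call with library totals, at 1.96, and without the second day 10 library, at 1.74. Adult mCD were 5.61-fold above day 20 (2.49, SE 0.33, adjusted p = 1.91e-05). The fall from day 10 to day 20 was 4.30-fold (-2.10, SE 0.33, adjusted p = 0.000342) and stopped at -1.66 without the first day 10 library. CD organoids against adult mCD gave 1.67 (SE 0.27, adjusted p = 0.000156), not called, and 2.06 with library totals, called. The log2(CPM + 1) values of Wnt4 and Wnt7b had a Pearson r of 0.965 over the 10 libraries.

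Wnt4 is also a gene of early nephron cells, so markers of those cells are given beside it. Six2, Cited1, Eya1, Meox1, Crym and Osr1, markers of nephron progenitors, summed to 1.68 to 2.28 CPM in CD organoids, where Meox1 and Osr1 were at 0, and to at most 19.1 CPM in any library. Among 6 markers of the renal vesicle and early nephron, Dll1 and Pax8 were called higher in CD organoids than at day 10, and Sfrp2, Lhx1 and Ccnd1 lower. Fgf8 was at 0 in both CD organoid libraries. Lhx1 is also given above as a gene of UB tips, and Ccnd1 is also one of the beta-catenin targets below. The study stains human UB organoids for PAX8 as a UB lineage marker. Lhx1, Ccnd1 and Pax8 thus do not mark early nephron cells alone. The 2 CD organoid libraries also held stromal transcripts. Stromal markers, given above, summed to 125.9 CPM for 1 of these libraries and to 239.9 CPM for the other. Whether cells other than the epithelium add to Wnt4 in CD organoids was not tested.

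Wnt5a, the best known ligand of the Ror receptors, peaked in UB organoids of day 10 and day 20. Its level was 42.8 and 49.0 CPM at day 5, 132 and 150.2 CPM at day 10, 139 and 130.4 CPM at day 20, 51.8 and 48.5 CPM in CD organoids, and 6.56 and 8.88 CPM in adult mCD. Day 10 overlapped day 20, CD organoids overlapped day 5, and adult mCD lay apart below. Adult mCD were 17.4-fold below day 20 (log2 -4.12, SE 0.13, edgeR adjusted p = 1.19e-11), and CD organoids were 6.48-fold above adult mCD (2.70, SE 0.13, adjusted p = 1.47e-09). Wnt5a was the only member that this test called between CD organoids and adult mCD. Day 10 was 3.07-fold above day 5 (1.62, SE 0.10, adjusted p = 2.10e-07) and CD organoids were 2.81-fold below day 10 (-1.49, SE 0.11, adjusted p = 4.91e-08), both under the limit of a call. Day 20 against day 10 gave -0.07 (SE 0.10, adjusted p = 0.665).

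Wnt5b, the closest relative of Wnt5a in sequence, had the narrowest range of the 8 by the ratio of its highest to its lowest library. Wnt5b was not called in any of the 7 comparisons. It was at 5.04 and 5.22 CPM at day 5, at 8.56 and 10.8 CPM at day 10, at 6.13 and 6.54 CPM at day 20, at 3.49 and 3.85 CPM in CD organoids and at 2.19 and 2.36 CPM in adult mCD. The 5 ranges did not overlap. Its largest differences were -1.46 for adult mCD against day 20 (SE 0.21, edgeR adjusted p = 4.52e-05) and -1.39 for CD organoids against day 10 (SE 0.19, adjusted p = 3.53e-05). Over the 10 libraries Wnt5b and Wnt5a had a Pearson r of 0.909 on the log2(CPM + 1) scale, the third highest of the 28 pairs.

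**Figure D2:**
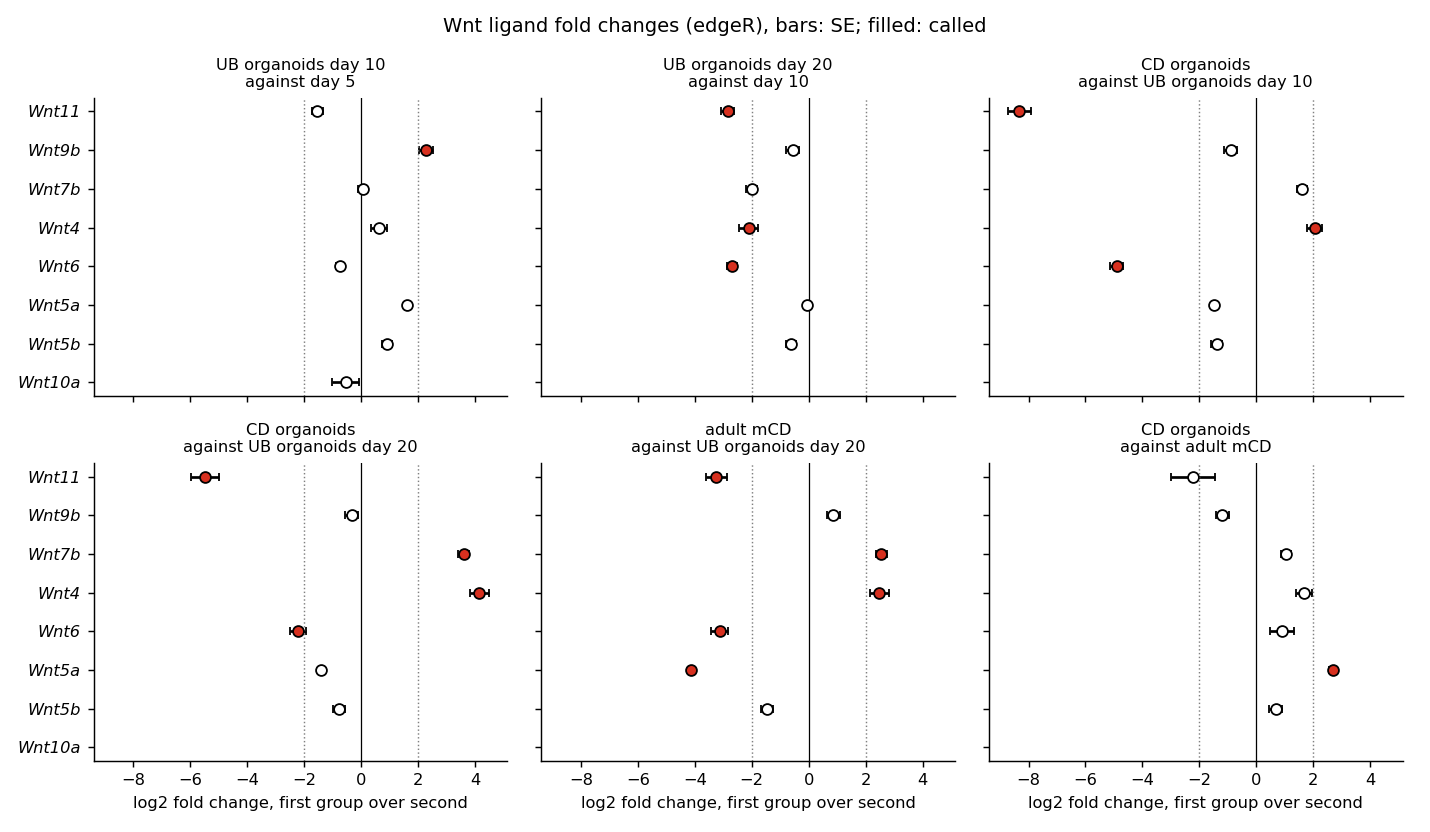
Log2 fold change of each Wnt ligand in 6 comparisons by edgeR, with bars of 1 SE, filled points for genes called and dotted lines at 4-fold; Wnt10a is left out where a group was at or under 3 counts. Wnt11 lies beyond 4-fold on the left in 5 of the 6, all but day 10 against day 5, with an open point for CD organoids against adult mCD, and Wnt6 in 4 of the 6, while Wnt7b and Wnt4 lie to the right in CD organoids and adult mCD against day 20.

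Counted by comparison, the members were called as follows. Between day 5 and day 10, 1 of 8 was called higher (Wnt9b), against 2.34% of all genes tested, and 0 of 8 lower, against 1.07%; by the looser rule of an adjusted p up to 0.05 with no fold limit, 3 were higher and 2 lower. Between day 10 and day 20, 4 of 8 were called lower (Wnt10a, Wnt11, Wnt6 and Wnt4), against 1.73% of all genes, and 0 higher, against 1.66%. The median log2 change of the 8 was -2.05, and that of all genes tested was -0.10. Between day 5 and day 20, 3 of 8 were called lower (Wnt10a, Wnt11 and Wnt6), against 3.93%, and 0 higher, against 4.68%.

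CD organoids against day 10 UB organoids gave 1 member called higher (Wnt4), against 4.96% of all genes, and 3 called lower (Wnt11, Wnt10a and Wnt6), against 5.71%. Against day 20 UB organoids, 2 were called higher (Wnt4 and Wnt7b), against 4.74%, and 2 lower (Wnt11 and Wnt6), against 4.73%. The 2 comparisons share the CD organoid libraries. Adult mCD against day 20 gave 2 members called higher (Wnt7b and Wnt4), against 12.3%, and 3 lower (Wnt5a, Wnt11 and Wnt6), against 6.89%; the comparison shares the day 20 libraries with the one before. CD organoids against adult mCD gave 1 member called higher (Wnt5a), against 4.5%, and 0 lower, against 9.84%; by the looser rule, 4 were higher and 3 lower.

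Levels of different genes can be set side by side only per length. The deposited RPKM, a count scaled to library size and gene length, divides by a length that adds the exons of all transcripts of a gene, so Wnt11, with 6 transcripts, was divided by 9891 bases where its merged exons cover 4137. For Wnt7b these lengths were 15971 and 4898 bases and for Wnt5b 9019 and 2654, whereas Wnt9b and Wnt4, with 1 transcript each, had a ratio of 1.00 between both lengths. Beside Wnt9b and Wnt4, RPKM thus gives Wnt11, Wnt7b and Wnt5b lower values than the merged exons do. Shares of the summed level of the 8 ligands are given on RPKM and on CPM per kilobase of merged exons.

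In day 5 UB organoids Wnt11 made up 56.9% ± 0.602 (SD, n = 2) of the summed RPKM of the 8 ligands and 67.9% ± 0.823 per merged exon length. Wnt6 came next on both scales, at 25.8% and 17.6%. At day 10 the share of Wnt11 was 25.5% ± 6.64 of the RPKM and 35.8% ± 8.05 per merged length. Wnt6, Wnt9b and Wnt5a held 20.1%, 20.1% and 17.7% of the RPKM, and each of the first 4 overlapped its neighbour in this order, although the lower Wnt11 library, at an RPKM of 11.2, stood just above the higher Wnt5a library, at 11.1. Per merged exon length Wnt11 stood apart from the next ligand, Wnt5a, with 26.4 CPM per kilobase in its lower library against 19.2 in the higher Wnt5a library. At day 20 Wnt5a held 40.6% ± 1.24 of the RPKM and Wnt9b 32.4% ± 0.328, both apart from Wnt11 at 8.82% ± 1.197.

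In CD organoids Wnt4 led with 57.4% ± 1.77 of the RPKM, followed by Wnt7b with 16.1% and Wnt9b with 15.3%, whose ranges overlapped. Per merged exon length, Wnt4 held 39.3% ± 0.368 and Wnt7b 35.9% ± 2.05, so the gap was smaller, though the ranges stayed apart: the lower Wnt4 library had 22.5 and the higher Wnt7b library 21.3 CPM per kilobase. Adult mCD were led by Wnt9b, with 54.3% ± 2.81 of the RPKM and 40.9% ± 2.46 per merged length. The share of Wnt11 was 0.100% in CD organoids and 0.820% in adult mCD on RPKM, and 0.165% and 1.48% per merged length. Wnt9b, Wnt7b and Wnt4 together made up 10.1% of the RPKM of the 8 at day 5, 33.0% at day 10, 39.9% at day 20, 88.9% in CD organoids and 94.0% in adult mCD. With 2 libraries a group no exact permutation test of a share between a pair of groups can reach 0.05, and the shares are given without a test.

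The summed RPKM of the 8 ligands was 67.8 and 90.1 at day 5, 65.8 and 54.0 at day 10, 25.4 and 24.7 at day 20, 43.2 and 39.5 in CD organoids, and 28.8 and 24.1 in adult mCD. Day 5 and day 10 lay above all other groups. The 8 ligands held 93.5% to 98.1% of the RPKM of all 19 Wnt genes in the group means, with the lowest share in CD organoids. The log2 ratio of Wnt11 to Wnt9b on RPKM went from 4.27 ± 0.310 (SD, n = 2) at day 5 to 0.37 ± 0.898 at day 10, -1.88 ± 0.182 at day 20, -7.34 ± 0.498 in CD organoids and -6.06 ± 0.227 in adult mCD. Per merged exon length the log2 ratios were 5.53, 1.62, -0.63, -6.08 and -4.81 in the same order of groups. The level of Wnt11 beside Wnt9b within a group thus depends on the length used. The merged exon length adds a constant to these ratios, and their differences between groups do not depend on it.

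**Figure D3:**
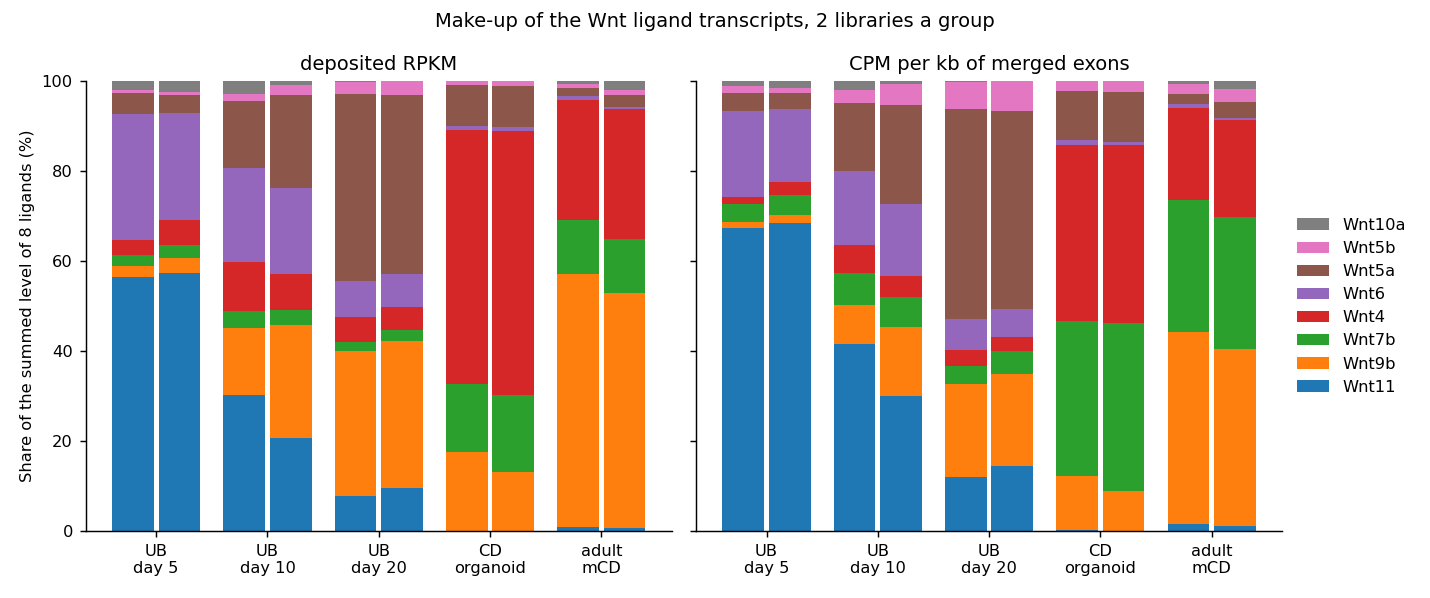
Share of each Wnt ligand in the summed level of the 8 in each library, in percent, on deposited RPKM (left) and on CPM per kilobase of merged exons (right), with 2 bars a group. Wnt11 takes 56.9% of the RPKM at day 5 and 0.100% in CD organoids, and Wnt7b is a larger and Wnt4 a smaller part of CD organoids on the right than on the left.

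The other 11 Wnt ligands were scarce. Their summed level was 10.7 to 17.7 CPM at day 5, 6.60 to 9.56 CPM at day 10, 3.16 to 4.50 CPM at day 20, 21.8 to 22.2 CPM in CD organoids and 4.82 to 4.95 CPM in adult mCD. Of the 11, 8 had enough counts to test. In CD organoids 0 of the 8 were called against day 10, where 4.96% of all genes were called higher and 5.71% lower. Of the 8, 2, Wnt10b and Wnt16, were called higher in CD organoids than at day 20 and than in adult mCD, against 4.74% and 4.5% of all genes. Against day 10, Wnt10b stood at a log2 difference of 1.83 (SE 0.50, edgeR adjusted p = 0.00815) and Wnt16 at 1.46 (SE 0.40, adjusted p = 0.00749), both under 4-fold. Wnt10b was at 8.55 to 11.1 CPM in CD organoids and at 0.463 to 0.546 CPM at day 20 (log2 4.14, SE 0.65, edgeR adjusted p = 0.000131). Wnt16 was at 5.05 to 5.27 CPM in CD organoids and at 0.0661 to 0.121 CPM at day 20, which is at or under 3 counts. Wnt9a, at 7.17 to 11.1 CPM, and Wnt7a, at 1.06 to 1.24 CPM, were highest at day 5. Both were called lower at day 20 than at day 5, against 3.93% of all genes. Wnt3, the neighbour of Wnt9b 24328 bases away, was at or under 0.142 CPM in every library.

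Of the ligand processing genes, neither Porcn nor Wls was called in any of the 7 comparisons. Wls was at 189 to 192 CPM at day 5, at 264 to 287 CPM at day 20, at 508 to 530.2 CPM in CD organoids and at 391 to 394 CPM in adult mCD, a log2 difference of 0.91 (SE 0.07, edgeR adjusted p = 1.56e-07) between CD organoids and day 20. Porcn ranged from 7.87 to 17.1 CPM, highest at day 5.

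Among 10 Frizzled receptors, Fzd10 was called in every comparison but day 20 against day 10. It was at 2.60 to 2.73 CPM at day 5, at 37.9 to 103 CPM at day 10, at 136 to 138 CPM at day 20, at 4.89 to 6.05 CPM in CD organoids and at 0.0786 to 0.301 CPM in adult mCD. The rise between day 5 and day 10 was 4.70 on the log2 scale (SE 0.40, edgeR adjusted p = 1.77e-06), and Fzd10 was the only Frizzled gene called there. CD organoids against day 20 gave -4.63 for Fzd10 (SE 0.39, adjusted p = 3.29e-07). Fzd9 was at 10.1 to 10.2 CPM at day 20 and at 0.142 to 0.160 CPM in CD organoids (-5.64, SE 0.34, adjusted p = 1.18e-08). It was also called lower in CD organoids than at day 10, the stage at which CD differentiation starts. In adult mCD, Fzd4 was called higher, at 453 to 475 CPM against 82.4 to 83.1 CPM at day 20 (2.49, SE 0.08, adjusted p = 8.09e-12), and Fzd10, Fzd9, Fzd3 and Fzd2 were called lower, against 12.3% and 6.89% of all genes. Endothelial and other tubule markers were higher in the same comparison, and their part in the Fzd4 level was not tested.

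Receptors that can bind Wnt5a are given beside it. Of 8 co-receptors and alternative receptors, Ror2 was called lower at day 20 than at day 10, from 31.9 to 49.0 CPM to 2.06 to 2.18 CPM (log2 -4.22, SE 0.24, edgeR adjusted p = 6.72e-08), while Wnt5a had -0.07 in the same comparison. Ror1 went from 10.8 to 13.1 CPM at day 5 to 61.9 to 62.6 CPM at day 20 (2.38, SE 0.17, adjusted p = 1.02e-07) and was 13.2 to 14.2 CPM in CD organoids. Lrp5 and Lrp6 were not called in any comparison.

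Genes that beta-catenin activates were lower in CD organoids, where Wnt7b and Wnt4 were highest. Of 10 such genes, 8 had a call for a lower level in CD organoids than at day 20 and 0 for a higher one, against 4.73% and 4.74% of all genes, with a median log2 change of -4.43 against 0.00 over all genes tested. Axin2, a general target, was at 57.5 to 63.9 CPM at day 5, 200.2 to 213 CPM at day 10, 183 to 193 CPM at day 20, 7.78 to 11.1 CPM in CD organoids and 3.62 to 5.13 CPM in adult mCD. It differed by -4.30 (SE 0.14, edgeR adjusted p = 5.18e-11) between CD organoids and day 20. Lef1 rose between day 5 and day 10 (2.81, SE 0.20, adjusted p = 4.38e-07), as did Sp5, and 0 of the 10 were called lower there. Against day 20, 7 of the 10 were called lower in adult mCD, against 6.89% of all genes, where Ccnd1, Lgr5 and Notum were not. UBCM holds CHIR99021 and the CD medium does not, so the medium and the ligands cannot be told apart in these targets.

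Most of the secreted inhibitors tested, though not Dkk3, the most abundant in CD organoids, set CD organoids and adult mCD apart. In CD organoids, 7 of 11 tested fell below adult mCD by a call and 0 lay above, against 9.84% and 4.5% of all genes, with a median log2 difference of -3.37 against 0.00 over all genes. Of these 7, Dkk1 and Sfrp4 rest on low counts, at 0 in CD organoids and at most 0.629 and 0.528 CPM in adult mCD. Sfrp1, which binds Wnts, was at 3.61 to 5.84 CPM in CD organoids and at 329 to 375 CPM in adult mCD (-6.19, SE 0.16, edgeR adjusted p = 4.73e-12), and Dkk2, which blocks Lrp5 and Lrp6, was at 0 to 0.0712 CPM and at 29.5 to 32.5 CPM. The markers of the proximal tubule, loop of Henle, distal tubule and endothelium given above also differed between these groups, and their part in this was not tested. Wif1, another Wnt-binding inhibitor, was at 30.6 to 31.8 CPM in day 20 UB organoids and at 0.160 to 0.285 CPM in CD organoids (-6.80, SE 0.54, adjusted p = 2.03e-07). Dkk3 held most of the summed level of the list in CD organoids, with 226 to 237 CPM where the sum was 233 to 247 CPM. Its level in adult mCD was 133 to 151 CPM, with no call against CD organoids. Against day 10, Dkk3 was called higher in CD organoids.

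**Figure D4:**
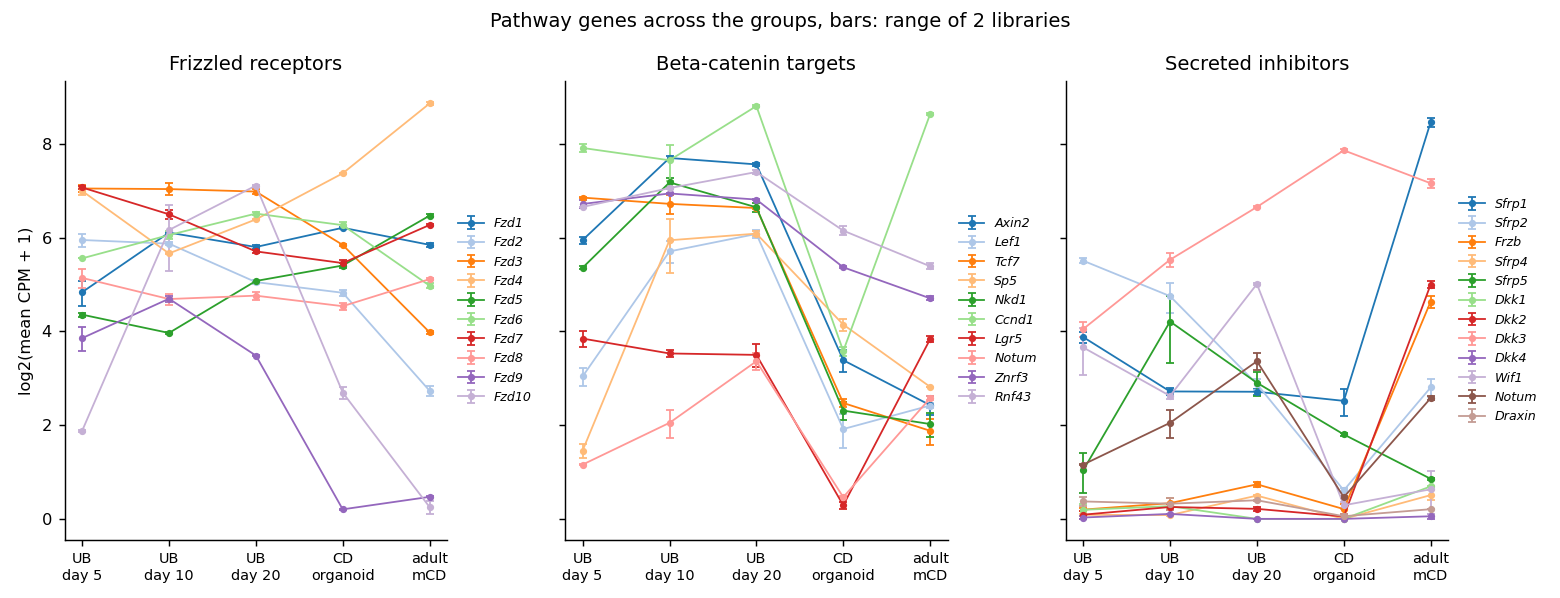
Mean level of Frizzled receptors, beta-catenin targets and secreted inhibitors in each group as log2(mean CPM + 1), with bars for the range of the 2 libraries; lines only join the points of a gene and are no time course beyond day 20. Fzd10 peaks at day 20, most beta-catenin targets drop in CD organoids, and Sfrp1 and Dkk2 are highest in adult mCD.

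The genes whose pattern over the 10 libraries was most like a ligand's were ranked by Pearson r of log2(CPM + 1) over 10533 genes. For Wnt11 these were Tdp1 (0.996), G3bp1 (0.996) and Dock1 (0.995), for Wnt9b Frmpd4 (0.958), Ndst1 (0.936) and Lratd1 (0.925), and for Wnt7b Tsc22d4 (0.986), Mbp (0.979) and CAAA01147332.1 (0.974). Mbp averaged 14.2 CPM at day 20, 215.9 CPM in CD organoids and 112 CPM in adult mCD. Dock1 averaged 289 CPM at day 5 and 142 CPM in CD organoids, a far smaller range than that of Wnt11. The 10 libraries fall into 5 pairs, so these values describe the order of 5 groups.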

How the data were processed

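The study's methods describe trimming, alignment with STAR to mm10 (GENCODE M24) and quantification in Partek Flow. The labels name FastQC 0.11.8, Trimmomatic 0.36, cutadapt 2.5, STAR and edgeR 3.28.1. Which of these routes gave the deposited counts was not tested. The deposited table holds gene counts, RPKM and a deposited TMM-scaled signal, which was not used for tests. Counts were tested here with edgeR 4.0.16 in R 4.3.3 (TMM factors of 0.792 to 1.12, a summed count of at least 10, prior count 1, 5 group means in a single fit of 10 libraries). DESeq2 1.42.0 was an alternative. CPM used TMM-scaled library sizes, and 3 counts, taken as the floor of detection, equal 0.109 to 0.241 CPM; floors and counting intervals cover counting error only. SE values are approximate, from the log2 fold change and the F statistic of the quasi-likelihood test. The fit was tested on simulated data with known changes. Same-numbered libraries had correlated deviations of -0.102 to 0.0925, so replicate numbers did not pair them. Members and gene lists were chosen with earlier results of these data known. The named genes are the 8 members, up to 4 genes of a list with the largest called changes, the 3 genes most like Wnt11, Wnt9b and Wnt7b, and Wnt genes adjoining a member; the other list genes, among them Porcn, Wls, Lrp5, Lrp6, Fgf8, Osr1, Lgr4 and the R-spondins, were named after their values were seen. Sequences came from GENCODE M21 and RefSeq.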

Additional observations from a re-analysis of the deposited data

How the results depend on the processing

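Of the member fold changes under another setting, 618 kept direction and call, 43 gained and 7 lost a call, and 4 reversed. None of the reversed was called. Gained calls include those under the looser rule, an adjusted p up to 0.05 with no fold limit on the same fit. Over left-out libraries, Wnt7b between day 5 and day 10 ranged from -0.19 (without the first day 10 library; -0.17 without the first day 5 library) to 0.35, Wnt10a there from -1.79 to 0.11 (without the second day 10 library), and Wnt5a between day 10 and day 20 from -0.13 to 0.056 (without the second day 10 library). Member calls between day 5 and day 10 ranged from 0 to 2 over left-out libraries. By an adjusted p up to 0.05 with no fold limit, 5, 7, 8, 8 and 7 members were called for day 10 against day 5, day 20 against day 5, CD organoids against day 10, adult mCD against day 20 and CD organoids against adult mCD, and 7970, 7083, 11017, 11530, 10311, 13761 and 12170 genes over the 7 comparisons. A prior count of 5 left 518 genes for day 10 against day 5 and 548 for day 20 against day 10. For CD organoids against adult mCD, where 1 member was called, library totals gave 2, no count filter 3, the 4 libraries alone 3 and DESeq2 3. A fit with the replicate block gave 2 members there and moved no other member count by over 1.5 times; the numbers do not pair the libraries. The Wnt11 share at day 5 was 55.3% with all 19 Wnt genes below it. With merged exon length, chosen after seeing the data, the shares were 67.9%, 35.8%, 13.3%, 0.165% and 1.48%, in the order day 5, day 10, day 20, CD organoids and adult mCD. Library totals moved the median of all genes to -0.47 for adult mCD against day 20 and to 0.34 for CD organoids against adult mCD. Groups of 2 and the low counts of Wnt10a, and of Wnt11 in CD organoids, limit precision.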

Other observations

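Planar cell polarity genes, through which Wnt11 and Wnt5a can signal, are given here as a further list. Of 12 genes, 0 were called in any comparison among UB organoids or between CD organoids and the other groups, where 1.07% to 9.84% of all genes were called in a given direction, so that 0 of 12 is near the background. In adult mCD against day 20 UB organoids, Celsr2 was called higher, at 388 to 423 CPM against 34.1 to 37.6 CPM, and Vangl2 lower, at 8.59 to 9.35 CPM against 64.4 to 65.0 CPM; Fzd3 was also called lower. These 3 of 12 stand against 12.3% of all genes called higher and 6.89% called lower. R-spondins, which amplify Wnt signals, were nearly absent: Rspo1, Rspo2, Rspo3 and Rspo4 were at most 0.236 CPM in any library. Their receptor Lgr4 was at 110.2 to 272 CPM throughout. Lgr5 was at 0.160 to 0.285 CPM in CD organoids and at 8.40 to 15.1 CPM in every other group.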
